A study of Mus musculus with 14 samples.

Results

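The genes described here are the Hox genes of the 4 mouse clusters, Hoxa, Hoxb, Hoxc and Hoxd. They were taken as every symbol of the array's annotation made of Hox, a cluster letter and a paralog number, without antisense transcripts, and a gene with several probe sets would have been read from the one with the highest mean. This gave 36 of the 39 Hox genes that RefSeq lists for these clusters: 10 of Hoxa, 9 of Hoxb, 9 of Hoxc and 8 of Hoxd, each with 1 probe set, among 18820 genes measured. Hoxb8 was matched only to a probe set that it shares with Hoxb7, which stayed between 3.14 and 3.58 on the log2 scale.

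Hox genes encode homeodomain transcription factors. In the embryo they are switched on in the order in which they lie along their cluster, so that genes with low paralog numbers are used in anterior tissue and those with high numbers in posterior tissue, and this record of position can persist in adult cells. In the gut most of this code is carried by the mesenchyme, and the Cdx factors, themselves encoded by relatives of the Hox genes, act upstream of central Hox genes in the embryo. Hox proteins bind DNA together with cofactors of the Pbx and Meis families.

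RNA was taken from organoids of adult C57Bl6j/CBA mice of both sexes, hybridised to 14 Affymetrix Mouse Gene ST 1.1 arrays, and is given as RMA signal, a background-corrected and normalised probe set intensity on the log2 scale. The mice carried Cdx2-/fl and the Lgr5-EGFP-Ires-CreERT2 allele, so that the controls too had only 1 intact copy of Cdx2, a transcription factor of the intestinal epithelium. The 7 sorted samples were Lgr5-EGFP-high stem cells (SCs) of clonal organoids, kept per the labels in stomach medium, which holds EGF, Noggin, R-spondin, Wnt3A, Fgf10 and gastrin (the methods allow either medium for control SI SCs): control small intestinal SCs (control SI SCs, n = 3), control stomach SCs (control Sto SCs, n = 2) and small intestinal SCs whose floxed allele had been removed with 4-hydroxytamoxifen (Cdx2null SI SCs, n = 2). The 7 other samples were whole control organoids of the small intestine or stomach, in intestinal medium with EGF, Noggin and R-spondin only (n = 3 from intestine and n = 2 from stomach) or in stomach medium (n = 1 for each origin). Stomach cultures came from pyloric glands. The paper describes its intestinal SCs as taken from the proximal small intestine, and names no region for the crypts of the whole organoids. The labels and methods do not state that the samples of a group came from separate animals, so p-values measure only the spread between these samples, which may in part be technical. Control SI SCs came from at least 2 mice, since Xist was at 3.35, 11.71 and 3.77 and the Y-linked Kdm5d at 7.10, 3.12 and 7.74. All Cdx2null and control Sto SC arrays had the female pattern, so sex was not balanced between these groups and the control SI SCs. Among the organoids, the single array of stomach origin in stomach medium had the male pattern (Xist 3.23, Kdm5d 7.25). On the other organoid arrays Xist was at 10.18 to 11.55, so sex was not balanced there either.

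Several arrays bear on what follows. Cdx2 was at 9.04, 10.05 and 8.94 in control SI SCs, at 8.41 and 4.88 in Cdx2null SI SCs and at 5.08 and 4.67 in control Sto SCs. Because the probes for Cdx2 also read exons left by Cre, its level is no test of the recombination. The library labelled SI organoids in SI medium 1 was at 5.52, against 9.92 and 9.67 on the other arrays of its group, which goes against its label. Array 3 of the control SI SCs and array 3 of the SI organoids in SI medium were exported with fewer digits than the rest. Whether they were normalised with the rest is not stated in the sources used here. Their upper quartiles of signal, 7.499 and 7.568, lay below those of all other arrays, the lowest of which was 7.793. The cause of this difference was not tested. Both arrays were kept in the ranges, group means, SDs and main fits. Epithelial markers were high on every array, with a mean over 6 genes between 11.5 and 12.03, whereas the mean of 14 mesenchymal markers stayed between 4.12 and 4.44 and 7 of them (Pdgfra, Dcn, Lum, Des, Twist1, Foxf1 and Thy1) never rose above the 99th percentile of the receptor genes described next. Between the SC controls, however, Pdgfrb was called lower (-1.16, limma adjusted p = 0.0283) and the macrophage gene Cd68 higher (1.72, adjusted p = 0.00374) in Sto. The means over 7 gastric marker genes were 10.11 and 10.14 on the Cdx2null arrays, against 6.44 to 6.59 in control SI SCs, but single genes differed between the 2 arrays, such as Muc1 at 10.15 and 11.67 (chosen after its values were seen). Their means over 10 intestinal marker genes were 5.69 and 5.01, against 8.72 to 9.55. On SI organoids in SI medium 1 the gastric mean was 10.10, against 6.13 and 4.90 on the other arrays of its group. Its intestinal mean was 4.998, against 10.98 and 10.88. Both means thus go against its label, as Cdx2 does. Lgr5 did not, at 9.49 there and 9.90 and 10.28 on the other arrays of the group.

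Hox signals were low, and how many stood above the floor of the arrays depended on where it was set. The floor was read from 1155 genes for olfactory and vomeronasal receptors, which are taken as silent in gut epithelium, and a Hox gene was called above it on an array where its signal exceeded the receptors' 95th percentile there, which ran from 3.79 to 4.23. By this measure 4 of the 36 Hox genes (Hoxb1, Hoxb3, Hoxb7 and Hoxd11) were above the floor on all 14 arrays, 10 were above it on none and 22 on some. On 13 or 14 arrays 10 genes were above it, and the median of the Hox genes on an array, 3.71 to 3.92, was above that of the receptors, 2.83 to 3.14. At the stricter 99th percentile 0 were above it on every array and 27 were above it on none. The floor sets signals of different probe sets against each other, so a signal above it is no proof that a transcript is present. A signal at the floor is likewise no proof that a transcript is missing.

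Grouped by paralog number, most genes of every class stayed low. Of the 15 genes with paralog numbers 9 to 13, which are used in posterior tissue, 13 never exceeded the 99th percentile of the receptors, and over the 14 arrays these genes ranged by a median of 0.524. Of the 14 genes numbered 4 to 8, 10 stayed below it, with a median range of 0.635, and of the 7 genes numbered 1 to 3, 4 did, with a median range of 0.774. By cluster, 8 of 10 Hoxa genes, 4 of 9 Hoxb genes, 8 of 9 Hoxc genes and 7 of 8 Hoxd genes never exceeded it. Hoxb thus had the largest share of genes that exceeded it on some array.

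The range of a gene, its highest minus its lowest signal over the 14 arrays, was small for most of the family. It had a median of 0.577 over the 36 Hox genes, next to 0.576 over the receptor genes and 1.02 over all genes. Of the Hox genes 6 (16.7%) ranged by at least 1, against 6.41% of the receptor genes and 51.1% of all genes. Those 6 were Hoxb2 (4.33), Hoxb4 (2.02), Hoxb3 (1.94), Hoxc4 (1.58), Hoxa4 (1.27) and Hoxa13 (1.02). Hoxb2, Hoxb3 and Hoxb4 are neighbours, and they stand apart in the map of signals, where nearly all other genes keep their colour across arrays.

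**Figure D1:**
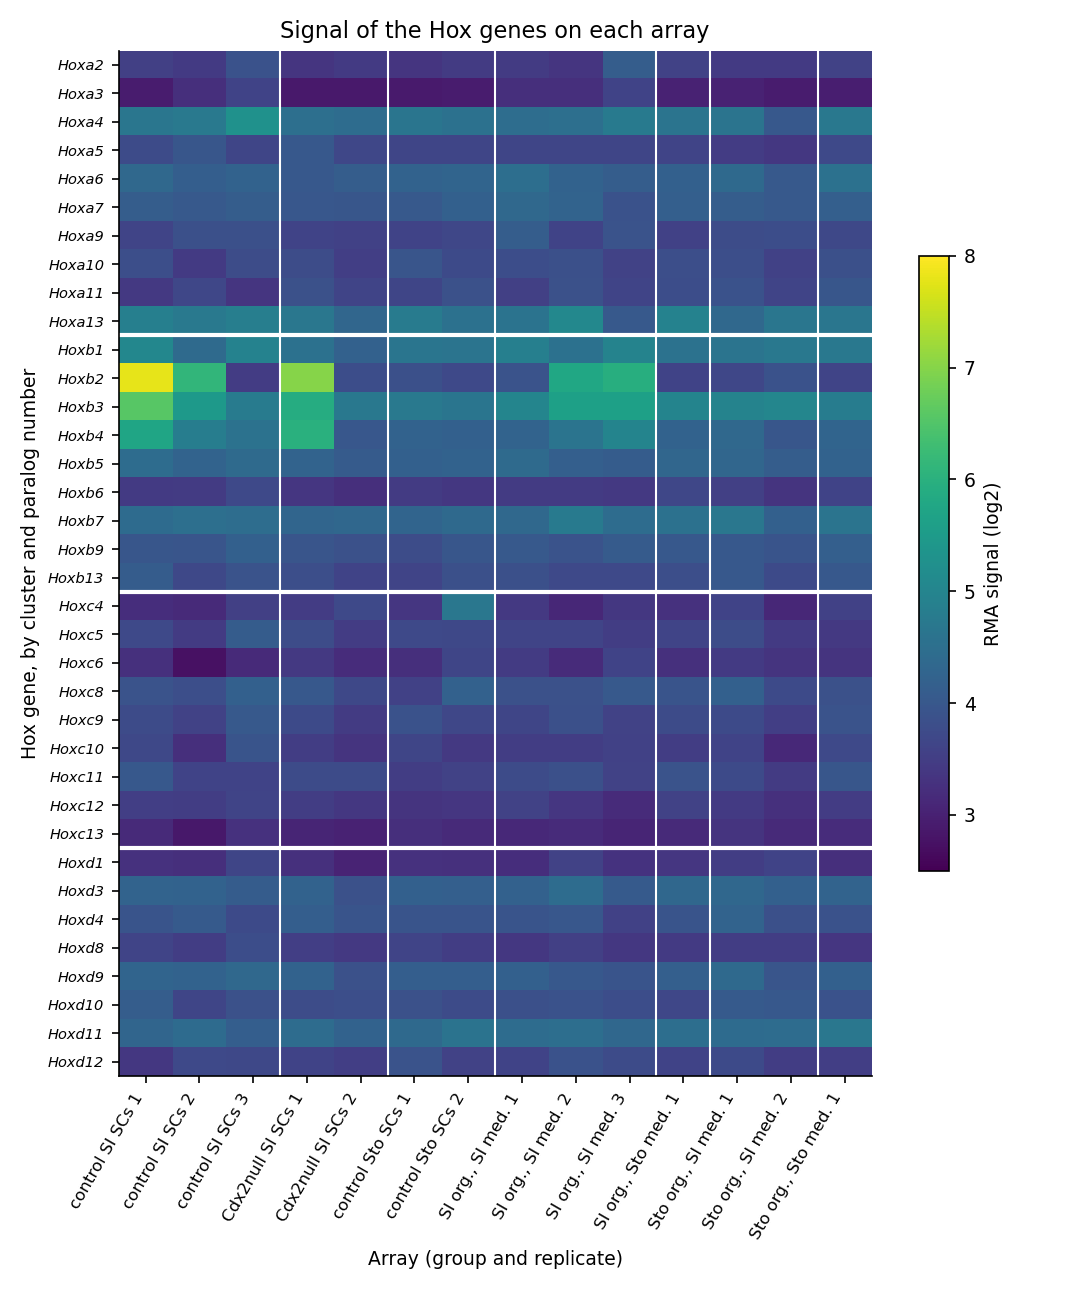
RMA signal (log2, colour) of the 36 Hox genes (rows, by cluster and paralog number, white lines between clusters) on the 14 arrays (columns, by group). Hoxb2, Hoxb3 and Hoxb4 are the rows that change most, with Hoxb2 between 3.47 and 7.80.

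**Figure D2:**
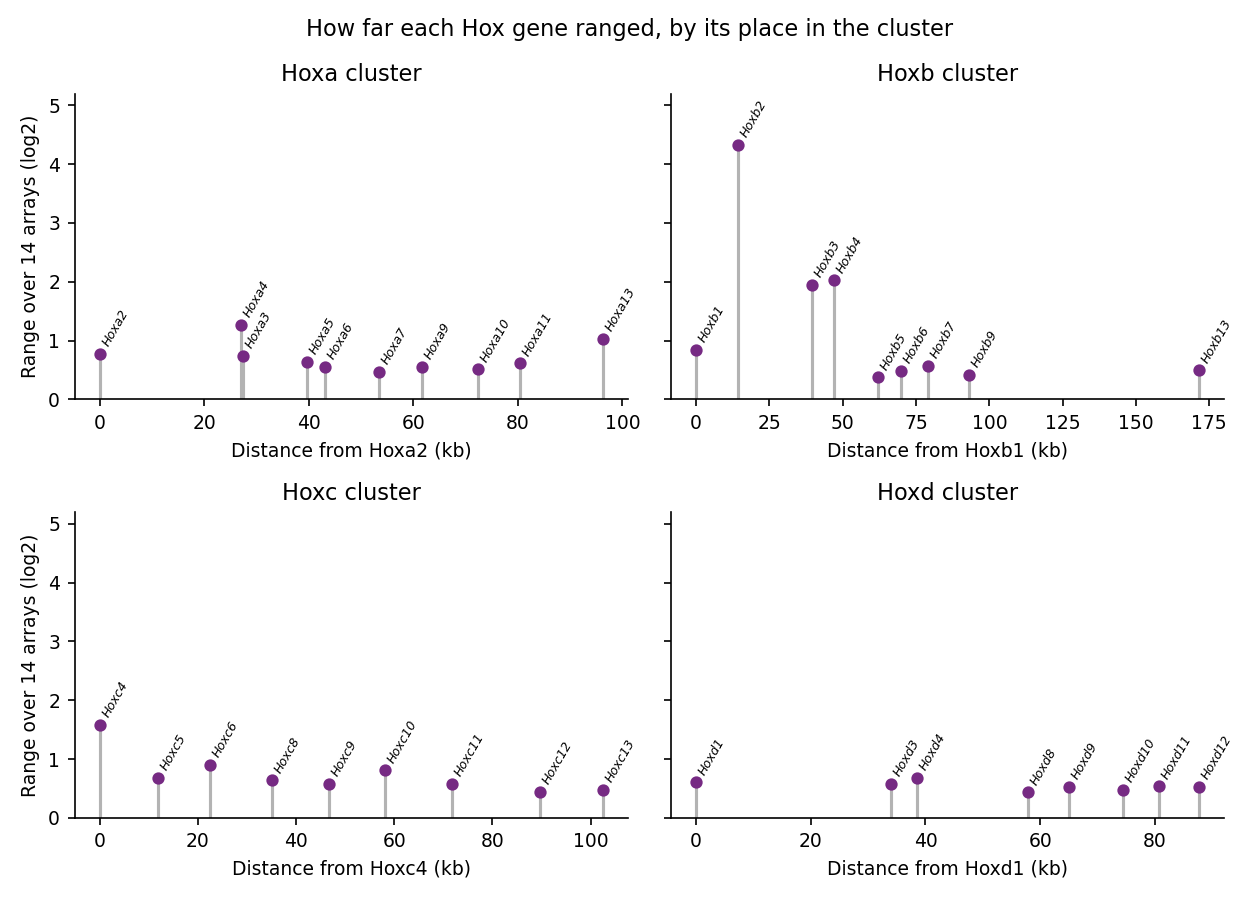
Range of each Hox gene over the 14 arrays (log2, vertical axis) against the distance of its midpoint from that of the first measured gene of its cluster, named on each axis (kb, horizontal axis). The widest ranges are those of Hoxb2 (4.33), Hoxb4 (2.02) and Hoxb3 (1.94), next to 0.846 for Hoxb1 and 0.373 for Hoxb5 on either side of them.

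In the genome (GRCm38.p6, chromosome 11, plus strand) these genes lie side by side near the anterior end of Hoxb. Hoxb4 spans chr11:96318267-96321638, Hoxb3 chr11:96307101-96347930 and Hoxb2 chr11:96351632-96354020, so that Hoxb4 and Hoxb2 are held in 35.8 kb of a Hoxb1 to Hoxb9 stretch of 96.9 kb. The annotated Hoxb3 gene contains Hoxb4, and the exons that its probes read are not given in the sources used here, so that signal of Hoxb3 and Hoxb4 may be shared. Hoxb1, at chr11:96365746-96368254, lies on the 3′ side of Hoxb2, and Hoxb5, at chr11:96303512-96306121, on the 5′ side of Hoxb4. Hoxb5 had the narrowest range of all 36 Hox genes (0.373).

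The promoter of Hoxb4 is shown because it is the one of this varying trio that RefSeq's promoter table held. These are the 250 bases before its start, chr11:96318017-96318266 on the plus strand of GRCm38.p6, with matches to TAAT (the core read by homeodomains, either strand) in capitals.
Hoxb4: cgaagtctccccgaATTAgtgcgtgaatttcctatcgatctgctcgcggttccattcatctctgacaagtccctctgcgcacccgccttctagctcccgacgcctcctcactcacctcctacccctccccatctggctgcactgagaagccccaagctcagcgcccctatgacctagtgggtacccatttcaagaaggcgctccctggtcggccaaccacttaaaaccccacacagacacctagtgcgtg
It held 1 match to TAAT and 0 matches to TTTATG (bound by Cdx factors), TGATNNAT (a joint Hox and Pbx site) or TGACAG (a Meis site), each searched on both strands. TAAT was found in 55.3% of 27025 promoters of this length and in 15 of the 20 Hox promoters in the table, TTTATG in 11.1% and 4 of 20, TGATNNAT in 7.91% and 2 of 20, and TGACAG in 16.0% and 2 of 20. The Hoxb4 window had 14 CG dinucleotides, next to medians of 11 in the 20 Hox promoters and 6 in all. These matches describe the letters only.

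Hoxb2, known from patterning of the hindbrain, was at 7.80, 6.13 and 3.47 in control SI SCs (mean 5.80 ± 2.18 SD, n = 3), at 6.99 and 3.79 in Cdx2null SI SCs (5.39 ± 2.26 SD, n = 2) and at 3.84 and 3.72 in control Sto SCs (3.78 ± 0.08 SD, n = 2). In SI organoids in SI medium it was at 3.91, 5.78 and 5.94, in SI organoids in Sto medium at 3.60, in Sto organoids in SI medium at 3.68 and 3.89 and in Sto organoids in Sto medium at 3.62. It was thus above the 99th percentile of the receptors on 5 arrays and below their 95th percentile on the other 9. All 5 were of small intestinal origin, but each replicated SI group also held 1 low array, at 3.47, 3.79 or 3.91, next to 3.62 to 3.89 over the stomach arrays. In control SI SCs that array is number 3 and in SI organoids in SI medium it is the library that goes against its label.

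Hoxb3, active in hindbrain and blood progenitors, was at 6.58, 5.48 and 4.78 in control SI SCs, at 5.91 and 4.71 in Cdx2null SI SCs and at 4.72 and 4.63 in control Sto SCs. In organoids of the small intestine it was at 5.01, 5.62 and 5.62 in SI medium and 4.98 in Sto medium, and in organoids of the stomach at 4.96, 5.03 and, in Sto medium, 4.81. Both control Sto SC arrays lay below every control SI SC array, the nearest at 4.78, and Cdx2null SI SCs overlapped both groups.

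Hoxb4, best known from work on blood stem cell renewal, measured 5.74, 4.83 and 4.57 in control SI SCs, 5.99 and 4.00 in Cdx2null SI SCs and 4.24 and 4.19 in control Sto SCs. SI organoids were at 4.24, 4.61 and 4.99 in SI medium and 4.24 in Sto medium, and Sto organoids at 4.36, 3.97 and 4.27. The highest array was a Cdx2null one, so that the order differed from that of Hoxb2, while control SI SCs 1 and Cdx2null SI SCs 1 were the top arrays for each of the 3 genes.

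**Figure D3:**
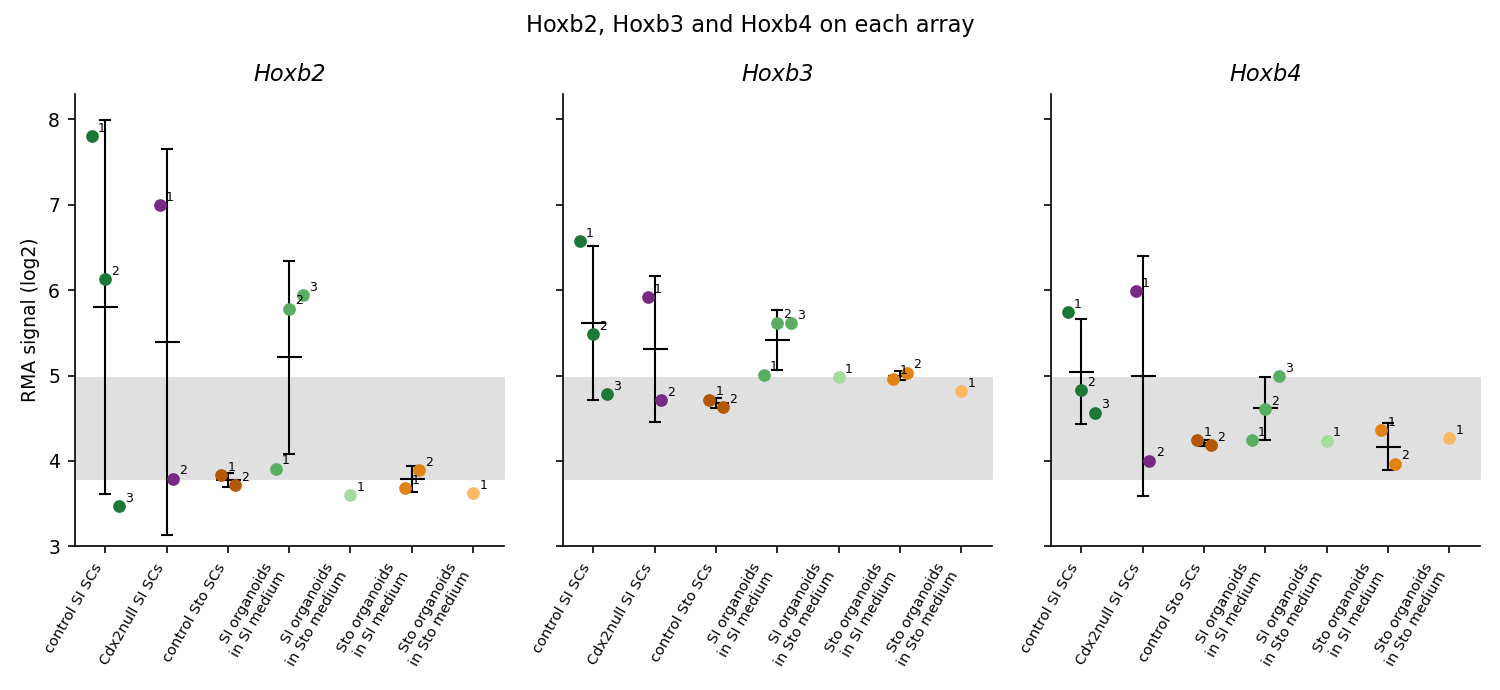
RMA signal (log2, vertical axis) of Hoxb2, Hoxb3 and Hoxb4 in the 7 groups, with 1 point per array (number, replicate), a black bar for the mean and whiskers for the SD where a group has more than 1 array; the grey band runs from the lowest 95th to the highest 99th percentile of the receptor genes. Control SI SCs 1 and Cdx2null SI SCs 1 are the highest in each panel, and both control Sto SC arrays are low.

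Across the 14 arrays the 3 genes varied together. Pearson's r was 0.962 for Hoxb2 with Hoxb3, 0.901 for Hoxb2 with Hoxb4 and 0.876 for Hoxb3 with Hoxb4, the 3 highest of the 630 pairs of Hox genes, whose median was 0.168. The 3 genes were picked for their wide ranges on these same arrays, and most other Hox genes ranged little. Their rank among the pairs is thus no separate support. Spearman's rho was 0.780, 0.591 and 0.723. Without control SI SCs 1 and Cdx2null SI SCs 1, the arrays farthest from the median of Hoxb2, r was 0.921, 0.794 and 0.760. These values describe points that share groups and labels, and the part of the overlap of Hoxb3 with Hoxb4 was not tested.

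Markers of other cells were compared with the trio within groups. In control SI SCs, with Hoxb2 at 7.80, 6.13 and 3.47, the mesenchymal mean was 4.36, 4.21 and 4.29 and the mean of 7 endothelial markers 4.40, 4.25 and 4.38. In Cdx2null SI SCs, with Hoxb2 at 6.99 and 3.79, the means were 4.44 and 4.13 for mesenchyme and 4.46 and 4.31 for endothelium. In both groups the array with most Hoxb2 thus also had the highest of these means, and their part in the result was not tested. Of the endothelial markers, 5 (Pecam1, Cdh5, Kdr, Tek and Emcn) never exceeded the receptors' 99th percentile. The receptor median was itself 3.04, 2.83 and 3.07 in control SI SCs and 2.96 and 2.84 in Cdx2null SI SCs. Its part was not tested either. In SI organoids in SI medium, with Hoxb2 at 3.91, 5.78 and 5.94, the mesenchymal means were 4.40, 4.42 and 4.41 and the endothelial ones 4.31, 4.17 and 4.10. The mean of 11 immune markers, 6 of which (Ptprc, Cd3e, Cd3g, Cd8a, Cd79a and Itgam) never exceeded the receptors' 99th percentile, was 4.34, 4.85 and 4.58 in control SI SCs, and on the Cdx2null arrays it was 4.77 and 4.605, higher where Hoxb2 was higher. The mean of 4 markers of enteric neurons and glia had the order of Hoxb2 on those organoid arrays (4.03, 4.16 and 4.30) but was 3.93, 3.89 and 4.10 in control SI SCs. On the Cdx2null arrays it was 3.93 and 3.77, higher where Hoxb2 was higher. The mean of 5 muscle markers was 4.73, 4.76 and 4.56 in control SI SCs and 4.76 and 4.72 in Cdx2null SI SCs. In those organoids it was 4.88, 4.59 and 4.53. Cdx2 was lowest where Hoxb2 was lowest in Cdx2null SI SCs (8.41 and 4.88) and in these organoids (5.52, 9.92 and 9.67). The same held in control SI SCs (9.04, 10.05 and 8.94), but there the arrays with most and least Hoxb2 were close, at 9.04 and 8.94. Of the arrays exported with fewer digits, one had the lowest Hoxb2 of its group and the other the highest.

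In bulk RNA a smaller share of cells that express a gene cannot be told apart from less RNA per cell.

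Whether loss of Cdx2 moved the Hox genes was asked by setting the Cdx2null arrays against those of control SI SCs, and whether the origins differ in them by setting the SC controls against each other. Each comparison was fitted over all genes with limma, and a gene was called at an adjusted p under 0.05 and a difference of at least 1 on the log2 scale. Between Cdx2null and control SI SCs 0 of 36 Hox genes were called, against 1.52% of all genes (287 of 18820; 0.93% higher and 0.595% lower), and 0 had an unadjusted p under 0.05, against 11.6% of all genes. Their differences ran from -0.42 to 0.29 with a median of -0.15, next to 0.03 for all genes, and their lowest adjusted p by limma was 0.542. With a term for sex the Hox median was -0.047. The 287 calls became 131 without Cdx2null SI SCs 2, and 184 or 185 when array 1 or 3 of the controls was left out.

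Hoxb2 did not pass the test in Cdx2null SI SCs, with a difference of -0.41 (SE 1.33, limma adjusted p = 0.954). Leaving out Cdx2null SI SCs 1 gave -2.01 and leaving out Cdx2null SI SCs 2 gave 1.19, so the sign of this value depended on which of the 2 arrays was kept, and it also turned without control SI SCs 1 (0.59). Hoxb3 differed by -0.30 (SE 0.54) and Hoxb4 by -0.05 (SE 0.58), and both turned positive without control SI SCs 1 (0.18 and 0.30) or without Cdx2null SI SCs 2 (0.30 and 0.94). These 2 Cdx2null arrays, 1 high and 1 low, are the ones that also split on Cdx2.

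In control Sto against control SI SCs 0 of 36 Hox genes were called, against 2.86% of all genes (538; 1.94% higher and 0.914% lower), and 0 had an unadjusted p under 0.05, against 15.6% of all genes. The median difference was -0.12, next to 0.03 for all genes, and the lowest adjusted p by limma was 0.439. With a term for sex the Hox median was -0.0038 and the 538 calls became 262. They became 160 or 178 without control Sto SCs 1 or 2, and 277 or 307 without control SI SCs 1 or 3. Hoxb2 was the only Hox gene with a difference of at least 1, at -2.02 (SE 1.33, limma adjusted p = 0.586), and it was -3.19 (adjusted p = 0.252) when array 3 of the control SI SCs was left out and -1.02 (0.817) when array 1 was. Hoxb3 differed by -0.94 (SE 0.54, adjusted p = 0.515) and Hoxb4 by -0.83 (SE 0.58, adjusted p = 0.619). Without control SI SCs 1 they were at -0.45 and -0.49.

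Hoxc4 was the Hox gene with the largest positive difference in this comparison, 0.71 (SE 0.37, limma adjusted p = 0.439). It was at 3.36 and 4.69 in control Sto SCs and at 3.23, 3.16 and 3.55 in control SI SCs. Only control Sto SCs 2 exceeded the floor, and no other array of the 14 was above 3.72, so the difference was 1.38 without control Sto SCs 1 (adjusted p = 0.0766) and 0.05 without control Sto SCs 2.

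A count of genes whose arrays did not overlap between groups was one-sided for the Hox genes. Of the 36, 10 lay lower on both Cdx2null arrays than on all 3 control SI SC arrays (27.8%) and 0 lay higher, where 9.52% of all genes lay lower and 15.4% higher (24.9% in all). They were Hoxa3, Hoxa4, Hoxa6, Hoxa7, Hoxa9, Hoxa13, Hoxb5, Hoxb6, Hoxb7 and Hoxd9. In control Sto SCs 9 lay lower than all control SI SCs (25%) and 0 higher, where 10.6% of all genes lay lower and 19.9% higher (30.6% in all). They were Hoxa3, Hoxa4, Hoxb3, Hoxb4, Hoxb5, Hoxb7, Hoxc11, Hoxc12 and Hoxd9. Both counts use the same control arrays and are given side by side only.

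The receptor genes leaned the same way. Of 1155, 10.9% lay lower and 1.13% higher in Cdx2null SI SCs, with a median difference of -0.09, and 9.26% lay lower and 1.99% higher in control Sto SCs, with a median of -0.08. The receptor median was 3.04, 2.83 and 3.07 on the control SI SC arrays. It was 2.96 and 2.84 in Cdx2null SI SCs and 2.95 and 2.84 in control Sto SCs. It was thus lower in both groups than on control SI SCs 1 and 3, but not than on control SI SCs 2. The part of this shift in the Hox counts was not tested. Among the genes at issue, Hoxa4 was at 4.66, 4.73 and 5.28 in control SI SCs, at 4.51 and 4.45 in Cdx2null SI SCs and at 4.63 and 4.54 in control Sto SCs, with differences of -0.41 (SE 0.21, limma adjusted p = 0.542) and -0.30 (SE 0.21, adjusted p = 0.609).

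Hoxa3 was at 2.93, 3.25 and 3.61 in control SI SCs, at 2.87 and 2.88 in Cdx2null SI SCs and at 2.89 and 2.92 in control Sto SCs, never above the floor. Its widest step was again within control SI SCs. Hoxa6 stayed between 4.00 and 4.56 over all arrays and Hoxa11 between 3.35 and 3.96, both highest on the single array of Sto organoids in Sto medium. The 4 genes whose group means moved least were Hoxc8 (a range of group means of 0.117), Hoxa7 (0.184), Hoxc13 (0.185) and Hoxa10 (0.203).

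Between Cdx2null SI SCs and control Sto SCs, compared to ask how near the former came to stomach, no gene was called (0 of 36 Hox genes, against 0% of all 18820 by limma). At an unadjusted p under 0.05 there were 0 Hox genes and 286 genes in all (1.52%). The Hox differences had a median of -0.09, next to -0.01 for all genes. Of the 36, 3 lay higher on both Cdx2null arrays (Hoxa5, Hoxc11 and Hoxc12) and 7 lower (Hoxa3, Hoxa4, Hoxa6, Hoxa7, Hoxb1, Hoxb6 and Hoxc13), 27.8% in all, where 23.8% of all genes lay apart, 10.2% higher and 13.5% lower. Hoxb2 was higher by 1.61 (SE 1.45) in Cdx2null SI SCs, a value of 0.01 without Cdx2null SI SCs 1 and 3.21 without Cdx2null SI SCs 2. With 2 arrays a group and such a spread, neither a difference nor its absence can be read from this value.

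Organoids were compared by origin and by medium in 1 fit over their 7 arrays. Between Sto and SI organoids 0 of 36 Hox genes were called, against 0% of all genes by limma. Without the library that goes against its label 371 genes were called, and 266 without either of the arrays in Sto medium, with 0 Hox genes each time. In the fit of all 7 arrays 13.8% of all genes and 0 Hox genes had an unadjusted p under 0.05. The Hox median was -0.03, next to 0.04 for all genes, and 0 Hox genes lay apart on all arrays of both origins, where 8.11% of all genes did (5.48% higher and 2.63% lower). Hoxb2 differed by -1.0 (SE 0.58, limma adjusted p = 0.496), and by -1.38 (adjusted p = 0.178) without the library that goes against its label. Hoxb3 differed by -0.34 (SE 0.19) and Hoxb4 by -0.31 (SE 0.23).

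Between Sto and SI medium 0 of 36 Hox genes were called, against 0% of all genes, with 0 Hox genes and 9.65% of all genes at an unadjusted p under 0.05 by limma. Hoxb2 was at -0.93 (SE 0.64, adjusted p = 0.733), which rests on the single SI organoid array in Sto medium at 3.60. Between sorted SCs and whole organoids 0 of 36 were called, against 0.0319% of all genes (6; 0.0266% higher and 0.00531% lower), and Hoxb2 was at 1.24 (SE 0.97, adjusted p = 0.911). The origin difference in SCs minus that in organoids kept in SI medium, so that sorting and medium changed together, was called for 0 of 36 Hox genes, against 0.526% of all genes (99; 0.282% higher and 0.244% lower), and was -0.60 (SE 1.56, adjusted p = 0.983) for Hoxb2. The 99 calls became 11 without control SI SCs 1 and 855 without the library that goes against its label, the lowest and highest when 1 array was left out. In these 2 comparisons 0 Hox genes, and 7.54% and 9.54% of all genes, had an unadjusted p under 0.05.

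The clusters also hold noncoding genes, of which 8 were measured: Hottip, Hoxd3os1, Mir10a, Mir10b, Mir196a-1, Mir196a-2, Mir196b and Mir615. None was called in any of the 7 comparisons (0 of 8 by limma, against 0% to 2.86% of all genes). Mir10a, which lies between Hoxb4 and Hoxb5 inside the annotated span of Hoxb3, stayed between 2.35 and 2.94 on the 14 arrays, below the receptors' 95th percentile on each, so that it cannot show whether it followed its neighbours. Such probe sets read precursor transcripts, not the mature miRNA. Hoxd3os1, antisense to Hoxd3, was at 4.17 and 3.94 in control Sto SCs and at 3.44, 3.24 and 3.60 in control SI SCs, a difference of 0.63 (SE 0.16, limma adjusted p = 0.0982) that met neither threshold of a call. It never exceeded the receptors' 99th percentile. A probe set that it shares with Hoxd3 overlapped, at 3.89 and 3.77 in control Sto SCs and 3.73, 3.83 and 3.56 in control SI SCs.

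The mature miR-10 and miR-196 sequences are shown because each pair comes from different clusters and shares its seed (bases 2 to 8, in capitals), so that 1 seed is encoded next to several Hox genes. They are RefSeq's, at chr11:96317186-96317208 in Hoxb (miR-10a-5p), chr2:74726074-74726096 in Hoxd (miR-10b-5p), chr11:96265187-96265208 in Hoxb and chr15:102973365-102973386 in Hoxc (miR-196a-5p) and chr6:52230129-52230150 in Hoxa (miR-196b-5p, minus strand), GRCm38.p6.
mmu-miR-10a-5p: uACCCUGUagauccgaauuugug
mmu-miR-10b-5p: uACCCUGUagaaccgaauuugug
mmu-miR-196a-5p: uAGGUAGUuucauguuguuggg
mmu-miR-196b-5p: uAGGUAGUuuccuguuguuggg
Counted from the 5′ end, the miR-10 pair differs by U12A and the miR-196 pair by A12C. Mir10b was between 2.35 and 2.94 on the arrays and Mir196b between 3.36 and 3.75, ranges as small as those of most Hox genes.

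Among the partners of Hox proteins, 2 differed between the origins in SCs. Of 8 measured genes of the TALE class, the homeodomain cofactors of Hox proteins, 2 were called higher in control Sto SCs than in control SI SCs, Meis1 and Meis2, and 0 were called lower. Meis1 was at 7.92 and 8.36 in control Sto SCs and at 4.47, 4.42 and 5.02 in control SI SCs, higher by 3.50 (SE 0.58, 11.3-fold, limma adjusted p = 0.0283). The groups did not overlap. Meis2 was at 10.44 and 9.82 against 7.0, 6.66 and 5.02, higher by 3.90 (SE 0.68, 14.9-fold, limma adjusted p = 0.0327). Both calls were lost when any 1 of the 5 control SC arrays was left out, with adjusted p between 0.0707 and 0.163 for Meis1 and between 0.0593 and 0.183 for Meis2, while the differences stayed between 3.28 and 3.72 and between 3.29 and 4.29. They were lost as well under the methods' t-test after Benjamini-Hochberg adjustment and with a term for sex.

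In Cdx2null SI SCs Meis1 was at 5.81 and 8.01, above all control SI SCs, with a difference of 2.27 (SE 0.58, limma adjusted p = 0.153; 1.18 without Cdx2null SI SCs 2), and Meis2 at 8.66 and 7.04, with a difference of 1.62 (SE 0.68, adjusted p = 0.426). The array that was higher for Meis1 was the lower one for Meis2. In organoids Meis1 was at 6.92, 6.76 and 7.02 in those of the stomach and at 4.55, 4.19 and 4.75 in those of the small intestine, apart from the library that goes against its label (7.33). The difference over all 7 organoid arrays was 1.71 (SE 0.79, limma adjusted p = 0.396). Meis2 overlapped between origins in organoids, at 10.66, 10.59 and 8.73 against 10.14, 9.31, 7.51 and 8.15. Pbx2, Pbx3, Pbx4, Meis3, Pknox1 and Pknox2 were called in none of the 7 comparisons.

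**Figure D4:**
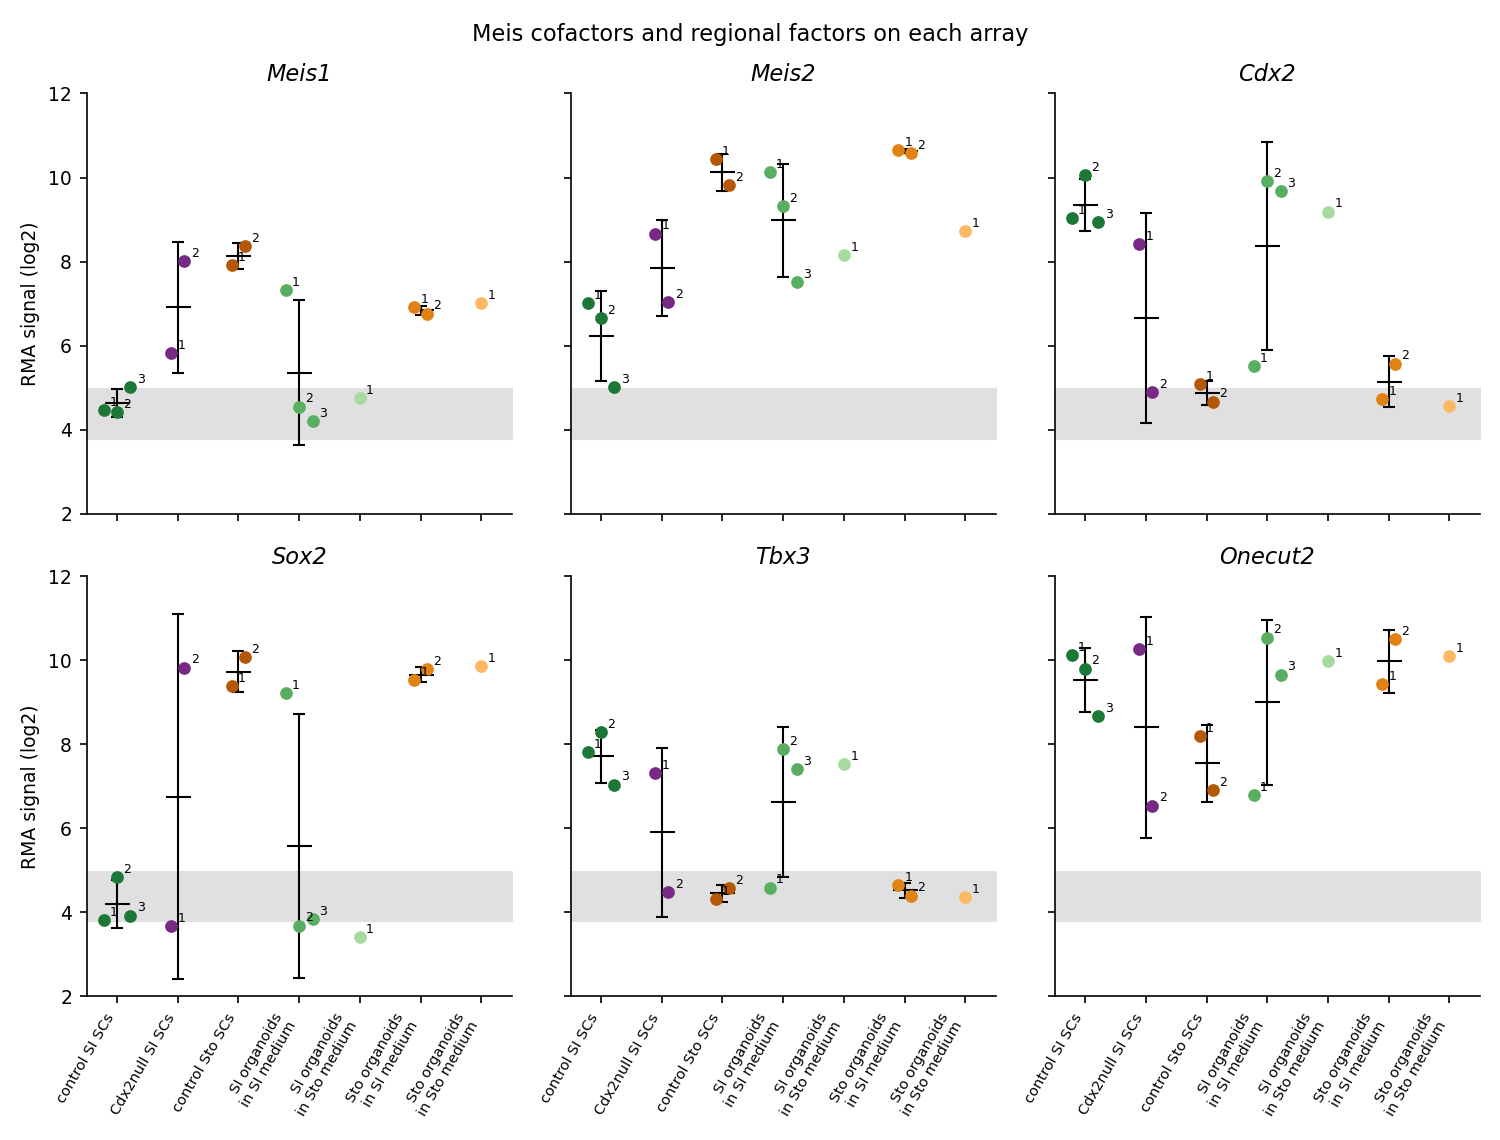
RMA signal (log2, vertical axis) of Meis1, Meis2, Cdx2, Sox2, Tbx3 and Onecut2 in the 7 groups, with 1 point per array (number, replicate), a black bar for the mean and whiskers for the SD where a group has more than 1 array; the grey band is the receptor floor as in the plot of the Hoxb genes. Meis1 is at 7.92 and 8.36 in control Sto SCs and at most 5.02 in control SI SCs, and the 2 Cdx2null arrays lie apart on Cdx2, Sox2, Tbx3 and Onecut2.

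The Cdx and ParaHox genes are evolutionary relatives of the Hox clusters. Of 6 measured, only Cdx1 was called. It was at 7.33, 7.904 and 6.88 in control SI SCs, at 4.79 and 4.46 in Cdx2null SI SCs and at 4.88 and 4.84 in control Sto SCs. Against control SI SCs, Cdx1 differed by -2.75 (SE 0.29, limma adjusted p = 0.00739) in Cdx2null SI SCs and by -2.51 (SE 0.29, adjusted p = 0.0078) in control Sto SCs. The first call was lost without Cdx2null SI SCs 2 (adjusted p = 0.0585), and the second without control Sto SCs 1 (0.0564) or control Sto SCs 2 (0.0611). Cdx1 was thus low on both Cdx2null arrays, whereas Hoxb2, Hoxb3 and Hoxb4 were high on one and low on the other. Cdx2 itself differed by -2.69 (SE 0.93, adjusted p = 0.295) and -4.47 (SE 0.93, adjusted p = 0.0542). Pdx1, the factor of the duodenum and pyloric antrum, and Cdx4, Gsx1 and Gsx2 were not called.

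Retinoic acid induces anterior Hox genes in the embryo. Of 13 measured genes of this pathway, Aldh1a1, an enzyme of its synthesis, was called higher in Cdx2null SI SCs (9.88 and 10.97 against 7.93, 8.55 and 8.36, a difference of 2.14, SE 0.33, limma adjusted p = 0.029). In control Sto SCs Aldh1a1 (10.004 and 10.05, a difference of 1.75, limma adjusted p = 0.0413) and the receptor gene Rarg (8.04 and 7.75 against 6.96, 6.67 and 6.58, a difference of 1.16, limma adjusted p = 0.0361) were called higher, and 0 genes of the list were called lower. In control Sto SCs both calls were lost without any 1 of the 5 control SC arrays, with adjusted p up to 0.198 for Aldh1a1 and 0.225 for Rarg, and in Cdx2null SI SCs that of Aldh1a1 was lost without 6 of the 7 SC arrays in turn, with adjusted p up to 0.110, the exception being Cdx2null SI SCs 1. All of these calls were lost as well with a term for sex.

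Regional transcription factors outside the Hox family were listed beside them. Of 14 measured, 2 were called lower in Cdx2null SI SCs, Isx (-4.29, SE 0.51, limma adjusted p = 0.0116), a homeobox factor of the intestine, and Hnf4g (-1.55, SE 0.15, adjusted p = 0.00601), and 0 were called higher. In control Sto SCs the same 2 genes were called lower (Isx -4.54, adjusted p = 0.0067; Hnf4g -1.38, adjusted p = 0.00664) and Nkx6-3, a homeobox factor of the stomach (3.95, SE 0.48, adjusted p = 0.00911), and Foxa2 (1.03, SE 0.20, adjusted p = 0.0464) were called higher. Isx lost its call without Cdx2null SI SCs 2 (adjusted p = 0.082) or, between the SC controls, without control Sto SCs 1 (0.0538), Nkx6-3 without control Sto SCs 1 (0.0603), Hnf4g without control Sto SCs 2 (0.0632), and Foxa2 without any of the 7 SC arrays. With a term for sex Nkx6-3, Hnf4g and Foxa2 also lost their calls between the SC controls, while Isx kept its call.

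Nkx6-3 was at 4.43 and 4.90 in Cdx2null SI SCs, as low as in control SI SCs (4.57, 5.44 and 3.92) and unlike control Sto SCs (9.11 and 8.09). The 2 Cdx2null arrays also lay apart on 3 other regional factors, chosen after their values were seen. Sox2, a factor of the foregut, was at 3.68 and 9.83, Tbx3 at 7.32 and 4.48, and Onecut2 at 10.27 and 6.54 on Cdx2null SI SCs 1 and 2. On each, array 1 was nearer to the mean of control SI SCs (4.20, 7.72 and 9.53) and array 2 to that of control Sto SCs (9.73, 4.45 and 7.56).

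The machinery that keeps Hox clusters silent or active was measured too. Of 20 Polycomb subunits, which hold Hox chromatin repressed, 9 Trithorax group and activating genes, which oppose them, and the 2 Evx genes at the ends of the clusters, 0 were called in any of the 7 comparisons by limma. Of all genes 0% to 2.86% were called in a comparison. No gene at all was called between Cdx2null SI SCs and control Sto SCs, or by origin or medium in organoids. At an unadjusted p under 0.05 by limma there were at most 4 of 20, 1 of 9 and 0 of 2 in a comparison, against 1.52% to 15.6% of all genes. The 4 of 20 were between Sto and SI organoids, where 13.8% of all genes passed.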

How the data were processed

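RNA of 14 samples was measured, each on an Affymetrix array (Mouse Gene ST 1.1). The authors normalised the scans with the RMA-sketch algorithm of Affymetrix Power Tools and deposited log2 values for 35556 probe sets, which were used without further normalisation. RMA compresses differences of weak genes. Of the probe sets 21218 had 1 symbol in the platform annotation, 1881 several and 12457 none, and symbols were updated through Entrez IDs with RefSeq (GRCm38.p6). The probe set with the highest mean stood for a gene, which left 18820 genes. Samples were grouped by their titles. The number of arrays limits the precision.

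Comparisons were fitted with limma 3.58.1 (lmFit, eBayes, 2-sided) in R 4.3.3, with Benjamini-Hochberg adjustment over all genes, and tested on simulated data first. SCs were fitted on 7 SC arrays, origin and medium additively on 7 organoid arrays, and sorted against whole samples (SCs taken as grown in Sto medium) and the difference between origin effects (SCs minus organoids in SI medium) on 12 control arrays. SE is the standard error of a difference. Alternatives were other scalings, a filter on dim genes, an intensity trend, the mean over probe sets, each array left out, the methods' t-test with a 2-fold threshold and a replicate block. A term for sex was added in the SC comparisons only. The arrays exported with fewer digits were left out together only in the comparisons that use whole organoids. Described in full were the 8 Hox genes with the widest and the 4 with the narrowest range of group means and any called, and up to 4 called genes of each other list. The members, lists and tests were chosen with earlier results of these data known.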

Additional observations from a re-analysis of the deposited data

Results flagged for a closer look

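Lgr5, the gene behind the sort, was the 1 result whose origin effect differed between SCs and organoids in SI medium among the Hox genes, the pathway lists and Lgr5. The SC controls were high for both origins, at 11.56, 11.30 and 10.79 for SI and 10.77 and 11.14 for Sto. In SI medium, whole intestinal organoids measured 9.49, 9.90 and 10.28, whereas stomach organoids in that medium were at 4.20 and 4.32. The difference between the origin effects was 5.37 (limma adjusted p = 0.00176). This contrast sets SCs grown in Sto medium against organoids in SI medium, so sorting and medium cannot be told apart in it. In Sto medium the single arrays of whole organoids were at 9.29 for Sto and 9.95 for SI.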

How the results depend on the processing

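In 113 alternative fits over the 7 comparisons 0 of 36 Hox genes were called, and at most 2 had an unadjusted p under 0.05. The number of all genes called ran from 0 to 498 for Cdx2null against control SI SCs (287 as reported), 0 to 828 for control Sto against control SI SCs (538), 0 to 17 for Cdx2null SI SCs against control Sto SCs (0), 0 to 505 for origin in organoids (0), 0 to 20 for medium (0), 0 to 9 for sorted against whole samples (6) and 11 to 855 for the difference between origin effects (99); the methods' t-test gave 0 (adjusted) and 498 or 828 (unadjusted) in the first 2 and 505 (unadjusted) for origin. Leaving out 1 array gave 131 to 320, 160 to 620 and, for origin in organoids, 0 to 371 with limma, and 855 is without SI organoids in SI medium 1. Of 1231 differences of the 12 Hox genes described in full, 111 changed sign under an alternative and 0 became called. Centring the arrays on their medians moved the median of all genes by -0.15, -0.20, 0.05, 0.04, -0.15, 0.01 and -0.28 in the order above. With it the Hox median became -0.30 for Cdx2null against control SI SCs, -0.32 for control Sto against control SI SCs, -0.10 for medium and -0.33 for the difference between origin effects. With a term for sex it became -0.047 and -0.0038 in the first 2. Leaving out 1 array gave Hox medians from -0.22 to -0.054 in the first comparison and from -0.15 to 0.046 in the last. At the 99th percentile of the receptors 0 Hox genes, not 4, were above the floor on every array. Only Hoxb2 passed the filter for genes above the array median, so no Hox median could be had with it.

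Arrays with the same replicate number had deviations that correlated by 0.07 to 0.40 among SCs and by -0.06 in organoids. The labels do not say what the numbers stand for, so they were not taken to pair the arrays. The positive values among SCs leave it undecided whether arrays of 1 number belong together there. With the replicate block, in which control SI SCs 3 stands alone and which leaves out the organoid array without a number, Hoxb2 was at -3.19 (adjusted p = 0.0951) and Hoxb3 at -1.35 (adjusted p = 0.0933) in control Sto against control SI SCs, 0 Hox genes were called, and 228, 500, 0 and 0 genes in all were called in the first 4 comparisons. Of the other list genes, Foxa2 was called under 2 of 15 alternatives, and Meis1 and Meis2 each under 8 of 15, in control Sto against control SI SCs.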
